A study of Homo sapiens with 18 samples.

Results

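Complex I of the respiratory chain is built from nuclear-encoded subunits and 7 subunits that human mitochondrial DNA encodes, MT-ND1, MT-ND2, MT-ND3, MT-ND4L, MT-ND4, MT-ND5 and MT-ND6. These 7 were taken from the deposited tables by transcript ID, out of 26679 footprint entries, and each entry's length in codons was set against the length of its protein. For 5 entries, MT-ND2, MT-ND3, MT-ND4L, MT-ND4 and MT-ND5, the length was the protein's less 20 codons, and these 5 were kept. MT-ND1 and MT-ND6 were off that trim by 1 codon, so they were set aside: their values are given separately and they enter no count of subunits. All 7 were among the 11065 of 14377 distinct footprint features that passed the filter on low counts.

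The subunits form the hydrophobic core of the arm of complex I that sits in the mitochondrial inner membrane. They are translated inside the organelle by mitochondrial ribosomes, which work attached to the inner membrane, and not by the cytosolic ribosomes that UFM1 is known to modify. MT-ND2, MT-ND4 and MT-ND5 are the antiporter-like, proton-pumping subunits, and MT-ND3 and MT-ND4L are small subunits near the junction of the arms. MT-ND1 contributes to the ubiquinone-binding site, and MT-ND6 is the subunit encoded on the light strand.

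Ribosome footprints and mRNA were sequenced from HEK293 cells, a line of human embryonic kidney origin. UFM1-KO cells lack UFM1, a small protein that is attached to others in the manner of ubiquitin, and UFSP2-KO cells lack UFSP2, the protease that takes it off again; each is 1 clonal line made with Cas9, so a knockout cannot be told apart from other properties of its clone. WT denotes the HEK293 cells they are compared with, and all lines were grown in DMEM with 10% FBS and no further agent. The membrane fraction is a Triton lysate of what digitonin left behind, the cytosol fraction is the digitonin lysate, and mRNA came from whole-cell lysates, each with libraries a and b per line (12 footprint and 6 mRNA libraries, 2 per group). The labels do not say that a and b were separate cultures, so the p-values measure only the spread between these libraries, which may be technical.

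Deposited counts summed to between 2848544 and 11388755 per membrane library, between 1393032 and 6666021 per cytosol library, and between 37451244 and 68675420 per mRNA library. The 5 kept subunits took 4050 to 20732 counts of a membrane library and 17 to 41 counts of a cytosol library. The transcripts of UFM1 and UFSP2 and the nuclear-encoded subunits of complex I were not analysed here, because no table at hand pairs the transcript IDs with gene names, and the knockouts were therefore not checked in the counts.

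On the mitochondrial chromosome of GRCh38.p14, RefSeq places MT-ND2 (ENST00000361453) at 4470 to 5511, MT-ND3 (ENST00000361227) at 10059 to 10404 and MT-ND4L (ENST00000361335) at 10470 to 10766. MT-ND4 (ENST00000361381) lies at 10760 to 12137 and MT-ND5 (ENST00000361567) at 12337 to 14148. MT-ND1 (ENST00000361390) lies at 3307 to 4262 and MT-ND6 (ENST00000361681) at 14149 to 14673, directly after MT-ND5. All are coding sequences without introns. MT-ND4L and MT-ND4 overlap by 7 nucleotides and are carried by a shared mRNA in which their reading frames differ, so a footprint in the overlap cannot be given to either gene alone. The RefSeq spans of MT-ND1 and MT-ND6 come to 319 and 175 codons, to the nearest codon. The deposited tables have 299 and 155, which is 20 less. By this measure, which is not protein length, MT-ND2, MT-ND3 and MT-ND4 were also 20 less, and MT-ND4L and MT-ND5 were 21 less. Nuclear pseudogene copies are named for every subunit in the gene table used here, from 23 for MT-ND3 to 38 for MT-ND5. Reads shared with such copies could have been split or lost in counting, so the levels carry that uncertainty.

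Per unit length, MT-ND3 and MT-ND5 had the highest footprint density of the kept subunits in the membrane fraction, MT-ND4L came next, and MT-ND4 and MT-ND2 had the lowest. Density is given as RPKM, the footprint count per kilobase of deposited length, scaled to library size with TMM factors. That length is the protein's less 20 codons, which is a larger part of the short MT-ND3 and MT-ND4L than of the others. Whether footprints were counted only within it is not given. Ranks of the short subunits carry that uncertainty. Over the 6 membrane libraries of all 3 lines, MT-ND3 ran from 548 to 1284 RPKM with a median of 988. MT-ND5 ran from 700 to 1066 RPKM with a median of 955. These subunits shared the first and second rank in every library and changed places between libraries, so their order was not separated from the spread. MT-ND4L ranked 3rd in 6 of 6 libraries, with a median of 671 RPKM and a range of 476 to 766.

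MT-ND4 had a median of 474 RPKM (409 to 533) and MT-ND2 one of 415 RPKM (222 to 492). They took the lowest ranks and changed places in WT library b, so they too were not separated. MT-ND4L lies upstream of MT-ND4 on their shared mRNA, and within a library its density was 1.06 to 1.64 times that of MT-ND4. By deposited length the ratio was above 1 in 6 of 6 libraries. It was lowest in UFSP2-KO library a, at 1.06, and in UFM1-KO library b, at 1.10. By full protein length it would be lower in every library, so a ratio above 1 in all of them depends on the length used. Among the entries set aside, MT-ND1 ran from 377 to 698 RPKM, and MT-ND6 had the lowest density of all 7 in 6 of 6 libraries, at 180 to 475 RPKM.

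**Figure D1:**
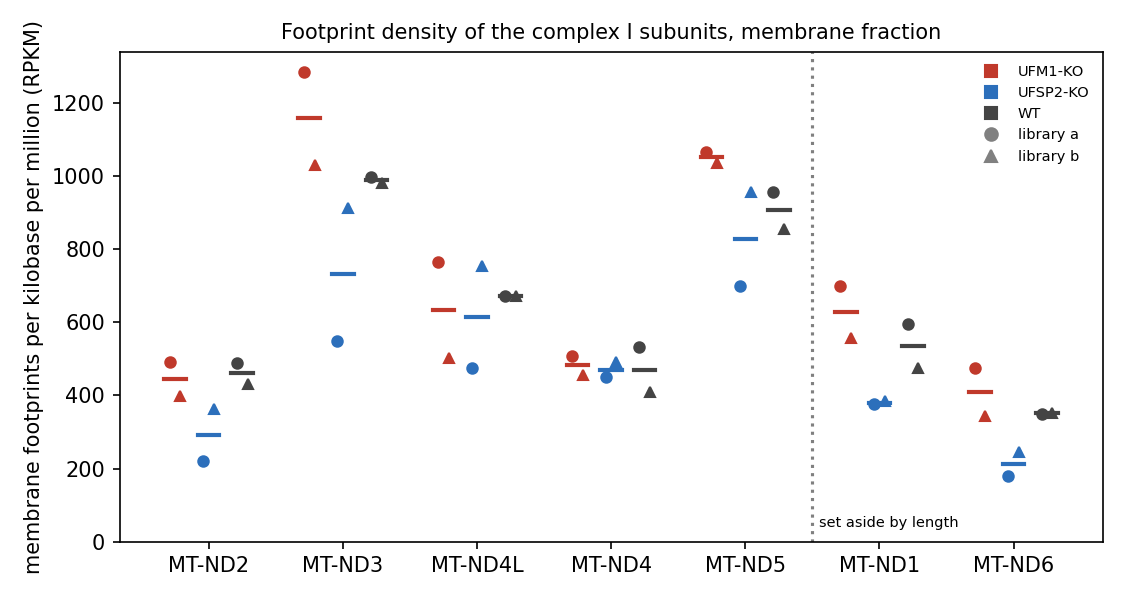
Footprint density in RPKM (vertical axis, linear from 0) of each subunit in the membrane fraction, with libraries a and b as separate symbols, bars at the mean of the 2 libraries, and the entries set aside by length to the right of the dotted line. MT-ND3 and MT-ND5 lie highest among the kept subunits, and UFSP2-KO library a is the lowest point for MT-ND2, MT-ND3, MT-ND4L and MT-ND5.

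In numbers of footprints rather than density, the long MT-ND5 reading frame held most of the kept subunits' membrane footprints, from 50.8% to 56.3% per library. MT-ND4 held 18.6% to 25.7%, MT-ND2 9.46% to 14.7%, MT-ND3 6.79% to 10.3% and MT-ND4L 3.66% to 5.67%. The share of MT-ND2 was 13.6% and 12.2% in UFM1-KO libraries a and b, 9.46% and 11.4% in UFSP2-KO libraries, and 14.6% and 14.7% in WT libraries. Both UFSP2-KO libraries lay below both UFM1-KO libraries and both WT libraries. The shares are given as a description, and the difference was not tested.

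All 5 kept subunits had more footprints in the membrane than in the cytosol fraction in each line, with ratios over both libraries from 93.7 for MT-ND4L in UFM1-KO to 1498 for MT-ND3 in WT, the last on 1 cytosol count (95% counting interval 269 to 59202). MT-ND5 had 10093 and 3373 counts in the UFM1-KO membrane libraries, against 24 and 12 in the UFM1-KO cytosol libraries. It had 2154 and 4199 in the UFSP2-KO membrane libraries, against 15 and 9 in the cytosol of that line. It had 4091 and 10711 in the WT membrane libraries, against 15 and 10 in the WT cytosol libraries. The fractions did not overlap in any line. MT-ND3 had 1981 and 547 counts in UFM1-KO membrane libraries against 3 and 3 in cytosol, 275 and 654 in UFSP2-KO membrane libraries against 2 and 1 in cytosol, and 695 and 2000 in WT membrane libraries against 0 and 1 in cytosol. MT-ND4L and MT-ND2 also had 0 to 7 cytosol counts per library, and MT-ND4 had 4 to 12.

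In the quasi-likelihood test of edgeR, adjusted over all features by Benjamini-Hochberg, 5 of 5 kept subunits were higher in the membrane fraction in each of the 3 lines. The background of features called higher was 23% of 11065 in UFM1-KO, 24.8% in UFSP2-KO and 25.3% in WT. MT-ND3 and MT-ND4L, at 4 cytosol counts or fewer per library, passed the low-count filter through their membrane counts. Their calls are therefore not independent of that filter, and 5 of 5 beside the background is a description only. Fitted log2 differences ran from 6.39 to 7.75 in UFM1-KO, from 7.09 to 8.21 in UFSP2-KO and from 8.01 to 10.26 in WT, where the median of all features lay within 0.02 of 0 in each line. Standard errors of edgeR values were derived from the log2 value and the F statistic. The largest here was 0.64, for MT-ND2 in WT, where DESeq2 gave 1.85. With so few cytosol counts the precision of these differences is therefore uncertain. DESeq2 also called 5 of 5 in each line. Of 6 further entries whose lengths match other mitochondrial coding sequences in RefSeq, all 6 were likewise called higher in each line, with fitted log2 differences of 7.05 to 10.35. MT-ND1 and MT-ND6 were also called higher in each line. MT-ND6 had 1576 counts over the WT membrane libraries and 0 over the WT cytosol libraries. With 3 cytosol counts over the group taken as the floor, its membrane-to-cytosol ratio was 292. From the observed 0, the lower 95% limit of the ratio was 237, for counting error only.

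**Figure D2:**
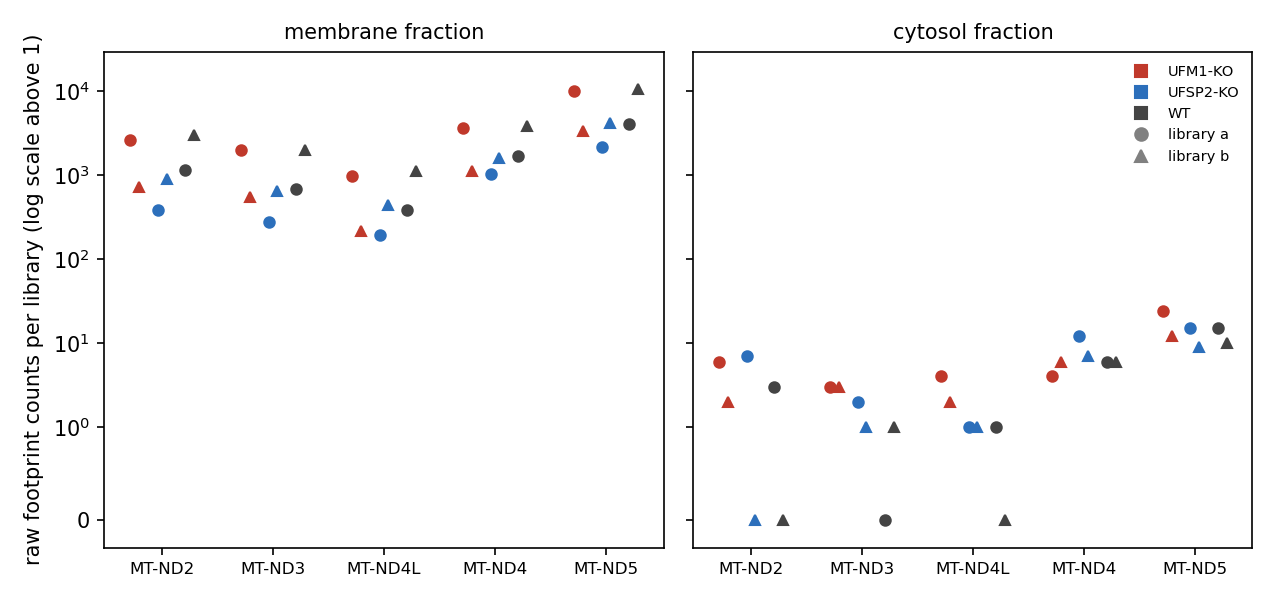
Raw footprint counts per library of the 5 kept subunits (vertical axis, logarithmic above 1 and linear below) in the membrane fraction on the left and the cytosol fraction on the right. Every membrane point is at 196 counts or above, and every cytosol point is at 24 or below, with 4 points at 0.

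The size of this ratio rested on very few cytosol counts. Summed over the kept subunits and both libraries, the membrane-to-cytosol ratio, scaled by library size, was 181 in UFM1-KO (95% interval 142 to 234), 229 in UFSP2-KO (176 to 304) and 381 in WT (282 to 529). These exact intervals cover counting error only. The spread between libraries was wider: in libraries a the summed ratio was 127 in UFM1-KO, 70.1 in UFSP2-KO and 132 in WT, and in libraries b it was 255, 588 and 739 for the same lines. Library b had the higher ratio in every line. Leaving out a cytosol library moved the fitted log2 differences to 7.16 to 8.70 without UFM1-KO cytosol library a and 5.71 to 7.79 without library b. In UFSP2-KO they were 5.41 to 7.17 without cytosol library b and, without library a, 8.21 to 9.29 over 4 subunits, since MT-ND2 had 0 counts in the cytosol library that was left and so no finite ratio. In WT they were 8.76 to 10.02 over 3 subunits without cytosol library a, where MT-ND2 and MT-ND4L were left at 0, and 6.68 to 7.24 over 4 without library b, where MT-ND3 was left at 0. In each of these fits the single cytosol library left was assumed to vary like the other groups.

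A change in that ratio between fractions was called for 0 of 5 kept subunits in UFM1-KO less WT and for 0 of 5 in UFSP2-KO less WT by edgeR and by DESeq2, where 0.00904% of all features were called in each. At an unadjusted p under 0.05 the numbers were 2 and 0. Fitted changes ran from -3.01 to -0.26 on the log2 scale in UFM1-KO and from -2.08 to -0.25 in UFSP2-KO, with standard errors of 0.70 to 1.74. These differences share the WT libraries, in whose cytosol fraction the kept subunits had 42 counts in all. With so few counts and the spread between libraries a and b, changes of this size were not called.

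Between lines, 1 difference in membrane footprints of the kept subunits passed the threshold in the fit over all footprint libraries. It was MT-ND3 in UFM1-KO against UFSP2-KO, which several other settings given below did not keep. Uncalled log2 changes reached -0.65 (SE 0.32), for MT-ND2 in UFSP2-KO against WT, so the lines were not shown to be alike. In UFM1-KO against WT, edgeR called 0 of 5 kept subunits, where 1.26% of all features were called. Both knockouts were set against the same WT libraries. With 2 libraries against 2, the smallest p that an exact permutation test could give is 0.333. Here and below, lines that do not overlap are therefore a description only. No kept subunit had an unadjusted p under 0.05, and DESeq2 called 0. MT-ND5, the distal proton-pumping subunit, had 1865 and 1810 CPM (TMM-scaled by library size, with no correction for length) in UFM1-KO libraries a and b, against 1672 and 1495 CPM in WT libraries. Both UFM1-KO libraries lay above both WT libraries, but the log2 change of 0.21 (SE 0.31) had an edgeR adjusted p of 0.879. MT-ND4 had 669 and 600 CPM in UFM1-KO libraries and 702 and 538 CPM in WT libraries, so the lines overlapped. Over the kept subunits the log2 changes ran from -0.07 to 0.23 with a median of 0.04, beside a median of 0.05 over all features.

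In UFSP2-KO against WT, edgeR again called 0 of 5 kept subunits, with 0 at an unadjusted p under 0.05 and 0 by DESeq2, where 11.1% of all features were called. MT-ND2 had 218 and 356 CPM in UFSP2-KO libraries a and b, against 479 and 424 CPM in WT libraries. Both UFSP2-KO libraries were lower, and the log2 change of -0.65 (SE 0.32) had an edgeR adjusted p of 0.202. In a fit of only the UFSP2-KO and WT membrane libraries that adjusted p was 0.00395. The change was -0.34 without UFSP2-KO membrane library a (edgeR adjusted p = 0.702) and -1.05 without library b (adjusted p = 0.181). MT-ND3 had 156 and 260 CPM in UFSP2-KO libraries and 284 and 279 CPM in WT libraries, with a log2 change of -0.43 (SE 0.23) and an edgeR adjusted p of 0.242. It was lower in both UFSP2-KO libraries, and its change was -0.11 without UFSP2-KO membrane library a and -0.85 without library b. MT-ND4L, MT-ND4 and MT-ND5 had log2 changes of -0.12, 0.002 and -0.13. The median over the kept subunits was -0.13, beside 0.01 over all features.

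In UFM1-KO against UFSP2-KO, 1 of 5 kept subunits was called, MT-ND3, where 11.2% of all features were called higher and 21.4% in either direction. One call among 5 is close to that background. MT-ND3 had 366 and 293 CPM in UFM1-KO libraries a and b, against 156 and 260 CPM in UFSP2-KO libraries. The groups did not overlap, UFSP2-KO library a stood lowest, and the log2 difference was 0.66 (SE 0.23, edgeR adjusted p = 0.0408). The call was lost without UFM1-KO membrane library a (0.49, edgeR adjusted p = 0.302), without UFM1-KO membrane library b (0.80, adjusted p = 0.0593) and without UFSP2-KO membrane library a (0.34, adjusted p = 0.475). It was also lost with DESeq2 (adjusted p = 0.191) and with RLE size factors (edgeR adjusted p = 0.0535), and relative to the summed mitochondrial counts the difference was -0.01. The other 4 kept subunits had log2 differences of 0.03 to 0.61. MT-ND2 at 0.61 (SE 0.32, edgeR adjusted p = 0.184) was also called in a fit of only these groups (adjusted p = 0.0130), and was at 0.29 without UFSP2-KO membrane library a and 1.01 without library b.

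Of the entries set aside, MT-ND6 moved most. It had 221 and 160 CPM in UFM1-KO membrane libraries a and b, 83.5 and 114 CPM in UFSP2-KO libraries, and 163 and 164 CPM in WT libraries. The UFSP2-KO libraries lay below all others. The log2 difference was 0.95 (SE 0.24, edgeR adjusted p = 0.00514) between UFM1-KO and UFSP2-KO, and -0.72 (SE 0.24, adjusted p = 0.0476) between UFSP2-KO and WT. The first was lost without UFM1-KO membrane library a (0.69, edgeR adjusted p = 0.122) and without UFSP2-KO membrane library a (0.74, adjusted p = 0.107). The second was lost whichever library was left out: -0.52 without UFSP2-KO library a, -0.97 without UFSP2-KO library b, -0.73 without WT library a and -0.71 without WT library b, with edgeR adjusted p of 0.0841 to 0.359. It was also lost with DESeq2 (adjusted p = 0.170) and with RLE size factors (edgeR adjusted p = 0.0501). MT-ND1 had 626 and 500 CPM in UFM1-KO libraries, 338 and 344 CPM in UFSP2-KO libraries, and 533 and 427 CPM in WT libraries. Its log2 difference between UFM1-KO and UFSP2-KO was 0.72 (SE 0.29, edgeR adjusted p = 0.0763), and that between UFSP2-KO and WT was -0.49 (adjusted p = 0.300). The first passed the threshold with library size only (edgeR adjusted p = 0.0498), with no filter (0.0397), with the letters as a replicate block (0.0164) and in a fit of only those groups (8.56e-04), but not with DESeq2 (adjusted p = 0.774). The second passed it in a fit of only those groups (edgeR adjusted p = 0.0120).

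**Figure D3:**
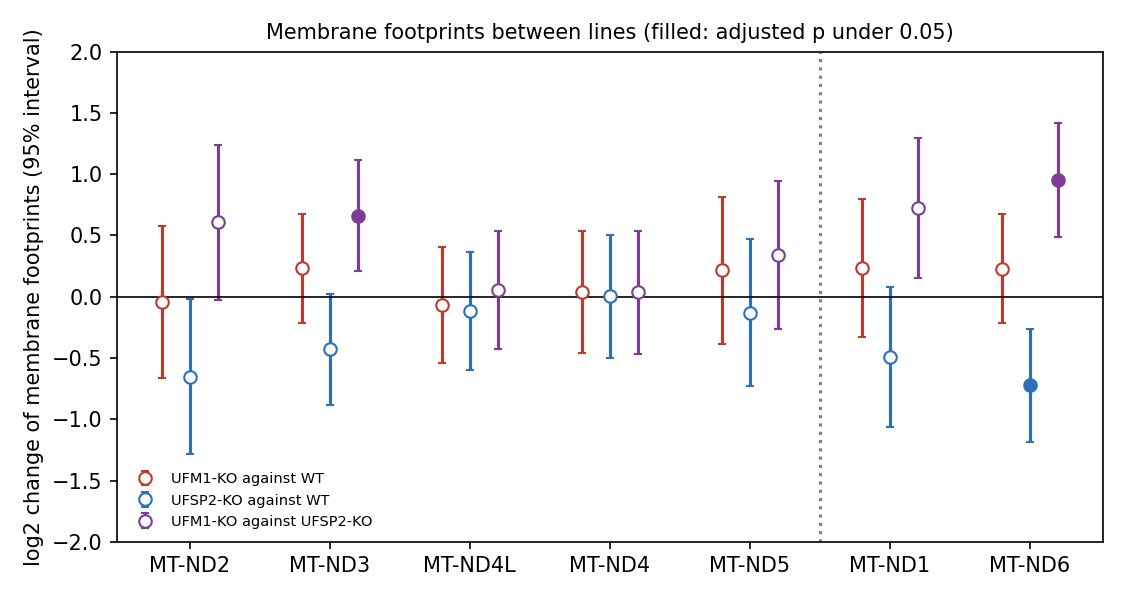
Fitted log2 change of membrane footprints between lines for each subunit (vertical axis), with error bars of 95% by the normal approximation, filled symbols where the edgeR adjusted p is under 0.05, and the entries set aside to the right of the dotted line. Among the kept subunits only MT-ND3 in UFM1-KO against UFSP2-KO is filled; MT-ND6 is filled against WT in UFSP2-KO and between the knockouts.

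These differences can be set beside the rest of the mitochondrial footprints. The 13 entries whose lengths match mitochondrial coding sequences, the 7 subunits included, took, of the counts summed over distinct features, 1.94 ± 0.17% in UFM1-KO membrane libraries, 1.17 ± 0.10% in UFSP2-KO and 1.60 ± 0.23% in WT membrane libraries (SD, n = 2 each). The 5 kept subunits took 0.317 ± 0.0094%, 0.244 ± 0.047% and 0.289 ± 0.025% of the same sums in the same lines (SD, n = 2 each). Of the mitochondrial counts, the kept subunits thus held 16.3 ± 0.94% in UFM1-KO, 20.8 ± 2.2% in UFSP2-KO and 18.1 ± 1.1% in WT. Among the 6 further mitochondrial entries, edgeR called 2 higher in UFM1-KO than in UFSP2-KO, where 11.2% of all features were called higher. These calls are not given under the other settings. Log2 differences of the 6 entries ran from 0.17 to 1.02 with a median of 0.81, beside 0.34 for the kept subunits. In bulk libraries, fewer cells carrying a transcript and less of it per cell cannot be told apart.

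In the cytosol fraction, edgeR called 0 of 5 kept subunits in UFM1-KO against WT, UFSP2-KO against WT and UFM1-KO against UFSP2-KO, where 0.85%, 3.99% and 12% of all features were called. DESeq2 also called 0 in each, and 2, 0 and 0 had an unadjusted p under 0.05. Summed over the kept subunits, the cytosol level was 28.1 and 12.6 CPM in UFM1-KO libraries a and b, 32.8 and 5.29 CPM in UFSP2-KO libraries, and 25.0 and 3.91 CPM in WT libraries. Library a was the higher one in every line, and the lines overlapped. Its deposited total was the smaller one: 1907000 against 2671157 in UFM1-KO, 1587853 against 5383754 in UFSP2-KO and 1393032 against 6666021 in WT. Fitted log2 changes ran from 0.30 to 2.96 in UFM1-KO against WT and from 0.12 to 1.64 in UFSP2-KO against WT. Between the knockouts they ran from -0.62 to 1.88, and standard errors over the 3 comparisons reached 1.71. With 17 to 41 counts per library and this spread between libraries a and b, even differences of this size were not called.

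The mRNA tables gave counts for 2 of the 5 kept subunits, MT-ND4L and MT-ND5. The entries of MT-ND2, MT-ND3, MT-ND4, MT-ND1 and MT-ND6 are listed there with no length and 0 counts in every library, as are 43611 entries in all, so their mRNA was not measured by these files. MT-ND4L mRNA was at 139 and 33.2 CPM in UFM1-KO libraries a and b, 32.8 and 63.6 CPM in UFSP2-KO libraries, and 44.4 and 56.8 CPM in WT libraries. UFM1-KO library a stood far above all others, and UFM1-KO library b lay below both WT libraries. Of the 13 mitochondrial entries, 5 have mRNA counts (MT-ND4L, MT-ND5 and 3 of the 6 further entries), and together they took 0.786% of the counts over distinct features in UFM1-KO mRNA library a, against 0.283% to 0.392% in the other mRNA libraries. MT-ND5 mRNA was at 286 and 181 CPM in UFM1-KO libraries, 140 and 237 CPM in UFSP2-KO libraries, and 167 and 288 CPM in WT libraries, and all lines overlapped.

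For the mRNA, edgeR called 0 of 2 in UFM1-KO against WT, UFSP2-KO against WT and UFM1-KO against UFSP2-KO, where 1.97%, 7.18% and 15.9% of 13900 features were called. None of the 6 differences had an unadjusted p under 0.05, and DESeq2 called 0 in each. MT-ND4L in UFM1-KO against WT had a log2 change of 0.77 (SE 0.45, edgeR adjusted p = 0.411), which was -0.61 without UFM1-KO mRNA library a. Without UFM1-KO mRNA library b, which leaves library a alone, it was 1.46 and past the threshold (edgeR adjusted p = 1.99e-04). Such a fit takes the spread of the single library from the other groups, so its p adds nothing to the level of library a given above. Against UFSP2-KO, MT-ND4L was at 0.84 (SE 0.45, edgeR adjusted p = 0.210), -0.53 without UFM1-KO mRNA library a, 1.53 without UFM1-KO mRNA library b (adjusted p = 1.56e-05) and 1.40 without UFSP2-KO mRNA library b (adjusted p = 0.0136). MT-ND5 had log2 changes of 0.04 in UFM1-KO and -0.27 in UFSP2-KO against WT, with standard errors of 0.29.

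**Figure D4:**
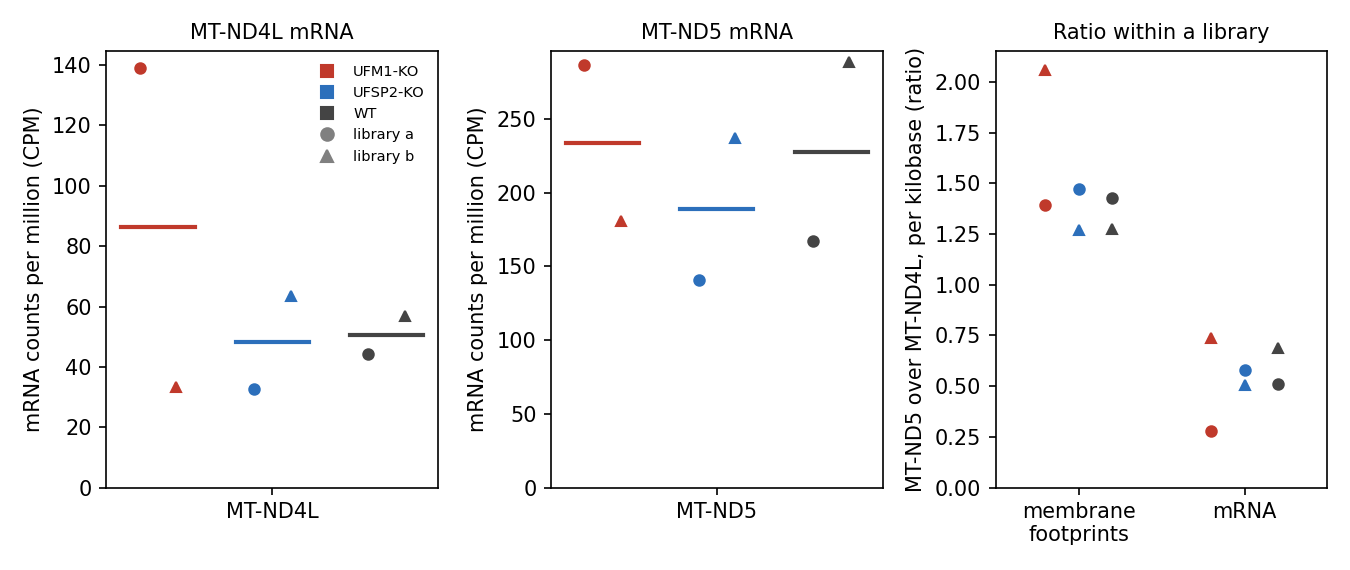
The left and middle panels show mRNA levels of MT-ND4L and MT-ND5 in CPM (vertical axes, linear from 0) in each library with bars at the mean of the 2 libraries; the right panel shows the ratio of MT-ND5 to MT-ND4L per kilobase within each library. MT-ND4L in UFM1-KO library a, at 139 CPM, stands above every other library, and the ratios of footprints (1.27 to 2.06) lie above those of mRNA (0.278 to 0.736).

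For MT-ND4L and MT-ND5, the change of membrane footprints less the change of mRNA was called for 0 of 2 in UFM1-KO less WT and for 0 of 2 in UFSP2-KO less WT by edgeR and DESeq2, where 0% and 0.0792% of 12629 features were called. None had an unadjusted p under 0.05. In UFM1-KO the difference was -0.89 (SE 0.54) for MT-ND4L on the log2 scale, and 0.47 without UFM1-KO mRNA library a. It was 0.13 (SE 0.50) for MT-ND5, and in UFSP2-KO it was -0.08 (SE 0.54) for MT-ND4L and 0.11 (SE 0.50) for MT-ND5.

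The levels of these subunits relative to each other were turned round between the assays. Per kilobase, MT-ND5 had 1.27 to 2.06 times the membrane footprints of MT-ND4L over 6 libraries, with a median of 1.41. In the 6 mRNA libraries the same ratio was 0.278 to 0.736, with a median of 0.544. MT-ND5 was thus above MT-ND4L in 6 of 6 membrane footprint libraries and below it in 6 of 6 mRNA libraries, and this held in each line. Footprint and mRNA libraries were prepared by different protocols from different lysates, and the part of these differences in the ratio was not tested.

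Across the 12 footprint libraries, the log2 CPM of the kept subunits followed their common mean with r of 0.992 to 0.998. Each subunit is part of that mean, which raises its r. Of 11058 features other than the listed subunits, those most like that mean were ENST00000617697.3 and ENST00000361739.1, both with r = 0.998. The gene name of the first is not paired with its ID here, and the second is one of the 6 further mitochondrial entries. These correlations describe mainly the difference between membrane and cytosol libraries, which all points share.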

How the data were processed

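Deposited tables held raw read counts per Ensembl transcript and, in the second column, another number, the length in codons; the values show no normalization by the authors. The submitters' processing notes name TopHat2 2.1.1 and GRCh38; how reads were counted, whether by strand, and with which annotation is not given in the sources used here. Entries with identical counts in every library were merged into distinct features, for mRNA among the entries matched to footprint entries. Shares are relative to all distinct features. CPM and RPKM are relative to the distinct features that passed the filter, scaled by TMM factors. The other gene lists planned (nuclear-encoded subunits, translation factors) were not used, since IDs could not be paired with names. All 7 subunits are named, as are the 2 features most like them. Members and lists were chosen with earlier results of these data known.

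In R 4.3.3, edgeR 4.0.16 (filterByExpr with a minimum count of 10, TMM, quasi-likelihood F test, Benjamini-Hochberg, threshold 0.05) was fitted to all 12 footprint libraries, all 6 mRNA libraries, or both together for footprint change less mRNA change; the procedure was tested on simulated data. Alternatives were DESeq2 1.42.0, RLE size factors, library size alone, scaling to the 13 mitochondrial entries, no filter, no merging, a replicate block, only the groups compared, and leaving out each library. For mRNA, and for both assays together, that scaling used only the mitochondrial entries with mRNA counts.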

Additional observations from a re-analysis of the deposited data

Results flagged for a closer look

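The changes from the shared WT libraries differed between the knockouts, by a test of the difference itself, for MT-ND3 and for MT-ND6, which was set aside by length. For MT-ND3 the log2 difference of membrane footprints between UFM1-KO and UFSP2-KO was 0.66, with log2 changes against WT of 0.23 in UFM1-KO and -0.43 in UFSP2-KO that were not themselves called. The test called 21.4% of all features, and MT-ND3 was lost without UFM1-KO membrane library a or b or UFSP2-KO membrane library a, with RLE size factors (edgeR adjusted p = 0.0535) and with DESeq2 (adjusted p = 0.191), and was at -0.01 relative to mitochondrial counts. For MT-ND6 it was 0.95, with changes against WT of 0.23 for UFM1-KO cells and -0.72 for UFSP2-KO cells. This call was lost relative to mitochondrial counts (0.26), without UFM1-KO membrane library a and without UFSP2-KO membrane library a.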

How the results depend on the processing

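With 2 libraries per group, the membrane-over-cytosol calls were the only ones among the kept subunits that held under every alternative but one: 5 of 5 in each line, also without each library, where the single library left in a group was assumed to vary like the others. The exception is by construction, since scaling to the summed mitochondrial counts measures a subunit against all mitochondrial entries, itself included. For mRNA the sum holds only the entries with mRNA counts. Most of it came from ENST00000361739, with 378959 counts over all mRNA libraries, against 113020 for the next, ENST00000361899. Under that scaling the following log2 values changed sign. For membrane against cytosol their standard errors were 1.03 to 1.21, and the lowest edgeR adjusted p was 0.109, for MT-ND4L in UFM1-KO. For membrane footprints against WT their standard errors were 0.62 to 1.16. These signs were therefore not settled. Membrane against cytosol in UFM1-KO gave -0.50 for MT-ND2, -0.62 for MT-ND3, -1.71 for MT-ND4L, -0.49 for MT-ND4 and -0.63 for MT-ND5, UFSP2-KO gave -0.47 for MT-ND4, and WT gave -0.92 for MT-ND4 and -0.57 for MT-ND5. For membrane footprints it gave, in UFM1-KO against WT, -0.071 for MT-ND3, -0.24 for MT-ND4, -0.064 for MT-ND5, -0.052 for MT-ND1 and -0.087 for MT-ND6; in UFSP2-KO against WT, 0.25 for MT-ND4L and 0.26 for MT-ND5; and in UFM1-KO against UFSP2-KO, -0.064 for MT-ND2, -0.0089 for MT-ND3, -0.64 for MT-ND4L, -0.65 for MT-ND4 and -0.33 for MT-ND5. For mRNA it gave -0.061 for MT-ND4L and -0.55 for MT-ND5 in UFM1-KO against WT and -0.27 for MT-ND5 against UFSP2-KO, and for footprint less mRNA change in UFSP2-KO 0.15 for MT-ND4L.

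The other sign changes were of uncalled values near 0. MT-ND4 in UFM1-KO against WT was -0.0061 in a fit of only those groups, and in UFSP2-KO against WT it was -0.042 with library size only, -0.0095 with no filter and -0.014 in a fit of only those groups. Between the knockouts, RLE size factors gave -0.0040 for MT-ND4L and -0.021 for MT-ND4, and DESeq2 gave -0.0087 for MT-ND4L and -0.021 for MT-ND4. MT-ND5 mRNA in UFM1-KO against WT was -0.019 with library size only. Footprint less mRNA change of MT-ND4L in UFSP2-KO was 0.021 with RLE size factors, 0.030 with library size only and 0.010 with DESeq2. Library size only moved the median of all features by up to 0.29 on the log2 scale (-0.29, UFM1-KO membrane against cytosol).

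Counts of called kept subunits moved as follows. For UFM1-KO against UFSP2-KO membrane footprints the count was 0 with RLE size factors, 0 with DESeq2, 2 in a fit of only those groups, and 0 to 1 without each library; for UFSP2-KO against WT it was 1 in a fit of only those groups. For mRNA it was 0 to 1 without each library in UFM1-KO against WT and in UFM1-KO against UFSP2-KO. The cause was not tested.

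Without each library in turn, sign changes gave these ranges of log2 values. In membrane footprints, UFM1-KO against WT ran from -0.21 to 0.093 for MT-ND2, -0.42 to 0.19 for MT-ND4L, -0.14 to 0.24 for MT-ND4 and -0.027 to 0.43 for MT-ND6; UFSP2-KO against WT ran from -0.49 to 0.17 for MT-ND4L, -0.18 to 0.21 for MT-ND4 and -0.37 to 0.082 for MT-ND5; and UFM1-KO against UFSP2-KO ran from -0.30 to 0.43 for MT-ND4L and -0.047 to 0.10 for MT-ND4. In mRNA, UFM1-KO against WT ran from -0.61 to 1.46 for MT-ND4L and -0.33 to 0.48 for MT-ND5; UFSP2-KO against WT from -0.62 to 0.33 for MT-ND4L and -0.70 to 0.18 for MT-ND5; and UFM1-KO against UFSP2-KO from -0.53 to 1.53 for MT-ND4L and -0.061 to 0.73 for MT-ND5. Footprint less mRNA change ran from -1.58 to 0.47 for MT-ND4L and -0.31 to 0.48 for MT-ND5 in UFM1-KO, and from -0.48 to 0.45 for MT-ND4L and -0.33 to 0.51 for MT-ND5 in UFSP2-KO.

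No label says that the letters a and b pair libraries, and there are 2 pairs per comparison. The differences of a less b correlated between lines by 0.153 to 0.160 in membrane and 0.220 to 0.331 in cytosol libraries, between fractions by 0.063 to 0.180, and by 0.060, -0.225 and -0.680 in mRNA. With the letter as a replicate block the counts stayed at 5 for membrane against cytosol, 1 for UFM1-KO against UFSP2-KO membrane footprints and 0 elsewhere, and MT-ND1, set aside, passed the threshold between the knockouts (0.70, edgeR adjusted p = 0.0164). Crossing the letters in UFM1-KO against UFSP2-KO mRNA, chosen after seeing the data, gave 1 call, against 0 with the letters as given.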
